A study of Homo sapiens with 24 samples.

Results

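The change between confluent and differentiated cultures was described in human nTERT-1 keratinocytes, an immortalised epidermal cell line, in which KAT2A had been knocked down. The comparison took every library labelled KAT2A_KD at these stages, 2 Differentiated and 2 Confluent libraries, 4 of the 24 RNA-sequencing libraries of the study. The study crossed 4 genotypes (KAT2A_KD, KAT2B_KD, KAT2AB_KD and NT) with 3 culture stages (Subconfluent, Confluent and Differentiated), 2 libraries per group. The same stages of KAT2B_KD, KAT2AB_KD and NT served to show where the KAT2A_KD change departed from theirs. Differentiated cells are called day 4 in the authors' sample table. All groups carry the same differentiation treatment label, and the sources used here do not say how the knockdown was made, what NT stands for or whether the libraries of a group came from separate cultures. The p-values below therefore measure the spread between libraries, which may be technical.

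KAT2A (GCN5) and KAT2B (PCAF) are closely related lysine acetyltransferases, and a cell places one or the other in the histone-modifying complexes SAGA and ATAC, which act at promoters and enhancers. Differentiating keratinocytes leave the cell cycle. They replace the basal programme with spinous and then granular genes, whose products build the cornified envelope and the lipid barrier of the skin. Interferon-stimulated genes form a separate programme: interferon receptors activate a complex that contains IRF9 and binds an element in the promoters of antiviral genes.

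Deposited read counts were tested with edgeR's quasi-likelihood test, and adjusted p-values are Benjamini-Hochberg values over the 15757 genes tested, with 0.05 as the threshold. Levels are CPM values, counts scaled to library size, after TMM scaling, with replicate 1 before replicate 2. A log2 change is the Differentiated minus the Confluent level. Total counts were 15335534 and 13517620 in the Differentiated libraries, against 12104540 and 8010178 in the Confluent libraries. CPM is not corrected for gene length, so levels are compared between samples and not between genes. All measurements are of bulk RNA, in which fewer cells of a type and less RNA per cell cannot be told apart.

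The promoters of 4 interferon-stimulated genes and of 1 mitotic gene are shown first, because the interferon group moved in opposite directions in KAT2A_KD and NT cells and the mitotic group fell as a whole. Each is the stretch of 170 bases before the RefSeq start on GRCh38.p14, read on the gene's strand. Capitals in the first 4 mark the core of the interferon-stimulated response element, searched as GAAA, any 2 bases and GAAA on both strands (on the other, TTTC, any 2 bases and TTTC). Capitals in CDC20 mark CCAAT boxes, here as CCAAT, and the cell cycle homology element TTTGAA, each also searched on both strands.

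IFI27 (chr14:94110566-94110735, plus strand): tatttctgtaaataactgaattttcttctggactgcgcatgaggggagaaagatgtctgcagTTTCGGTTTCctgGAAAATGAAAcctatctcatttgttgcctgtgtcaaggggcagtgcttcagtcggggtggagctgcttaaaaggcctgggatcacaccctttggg
IFI6 (chr1:27672193-27672362, minus strand): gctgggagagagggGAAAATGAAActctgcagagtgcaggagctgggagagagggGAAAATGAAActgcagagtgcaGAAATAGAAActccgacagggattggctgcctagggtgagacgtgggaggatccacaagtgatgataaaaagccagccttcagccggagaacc
IFI44L (chr1:78620278-78620447, plus strand): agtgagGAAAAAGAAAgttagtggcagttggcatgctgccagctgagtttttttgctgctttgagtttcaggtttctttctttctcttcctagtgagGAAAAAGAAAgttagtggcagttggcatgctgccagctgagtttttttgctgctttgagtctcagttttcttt
IFIT1 (chr10:89392453-89392622, plus strand): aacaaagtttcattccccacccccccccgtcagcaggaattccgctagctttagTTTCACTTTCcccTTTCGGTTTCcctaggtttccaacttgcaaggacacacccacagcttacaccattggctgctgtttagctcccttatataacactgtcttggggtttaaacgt
CDC20 (chr1:43358811-43358980, plus strand): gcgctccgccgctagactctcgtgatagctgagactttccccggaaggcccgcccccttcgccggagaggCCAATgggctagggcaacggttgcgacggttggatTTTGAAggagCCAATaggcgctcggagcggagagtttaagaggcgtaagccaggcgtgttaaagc

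The interferon core was present 3 times in the printed IFI6 stretch and 2 times each in those of IFI27, IFI44L and IFIT1. Over windows of 250 bases before to 50 bases after each start, 22 of the 32 interferon-list genes with a RefSeq window held it (68.8%), against 1195 of all 27305 genes with a window (4.38%). Among interferon-list genes that rose in the Differentiated libraries it was present in 14 of 19 with a window (73.7%), and among those that did not pass the test in 8 of 12 (66.7%). None of the 32 mitotic genes with a window held it. TTTGAA was present in 24 of those 32 mitotic genes (75%) and in 1 of 34 DNA replication genes, against 4961 of all 27305 genes (18.2%), and CCAAT in 26 of the 32 (81.2%), against 10846 of all genes (39.7%). A match describes the letters and not a bound site.

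KAT2A itself was low in all libraries labelled KAT2A_KD. It had 3.03 and 4.94 CPM in the Differentiated libraries, against 4 and 5.06 CPM in the Confluent libraries (log2 change -0.18, SE 0.51, adjusted p = 0.8), and the stages overlapped. The NT libraries had 12.8 and 10 CPM when Differentiated, against 38.5 and 36.4 CPM when Confluent. KAT2B, its paralogue, had 43.7 and 39.6 CPM in the Differentiated libraries, against 6.89 and 7.85 CPM in the Confluent libraries of KAT2A_KD (log2 change 2.5, SE 0.49, adjusted p = 0.00039). The same gene had 44.9 and 40.4 CPM in Differentiated NT libraries, against 4.32 and 4.06 CPM in Confluent NT libraries, and its change did not differ between the genotypes past the threshold (log2 difference -0.84, SE 0.68, adjusted p = 0.8). At the Differentiated stage KAT2B was thus the more counted of the paralogues in both genotypes, a comparison of counts that gene length also affects.

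**Figure D1:**
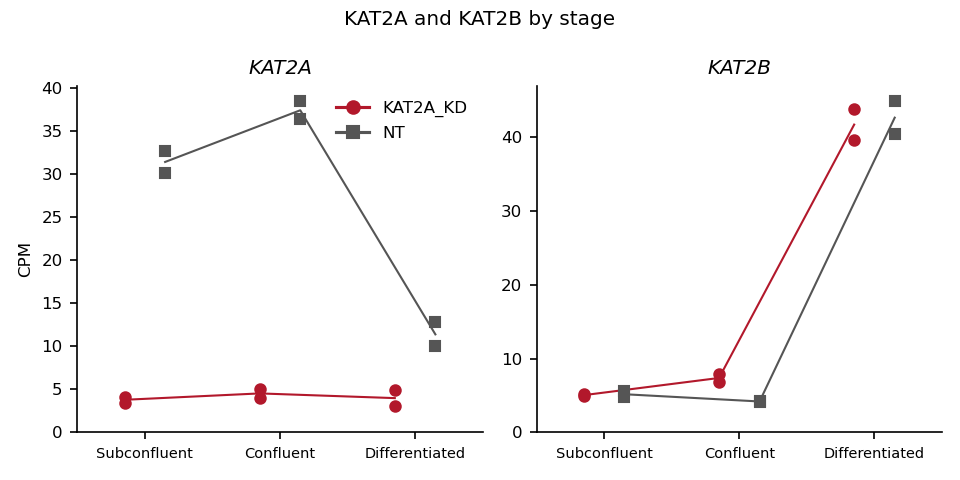
CPM of KAT2A and KAT2B (vertical axes, linear from 0) by stage, Subconfluent, Confluent and Differentiated, with KAT2A_KD left of NT. Each point is 1 library and the lines join the means of 2 libraries. KAT2A lay between 3.03 and 5.06 CPM in all 6 KAT2A_KD libraries, and KAT2B was highest in the Differentiated libraries of both genotypes.

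In the KAT2A_KD cells, 3378 of the 15757 genes were higher in Differentiated than in Confluent libraries (21.4%) and 3414 were lower (21.7%), 43.1% in all. Changes tested to exceed 2-fold numbered 1393 higher (8.84%) and 1150 lower (7.3%). The median log2 change over all tested genes was -0.01. NT cells had 3833 higher (24.3%) and 4116 lower genes (26.1%), 50.4% in all. Of the genes that rose in KAT2A_KD cells, 2864 also rose in NT cells, 84.8% of those that rose in KAT2A_KD and 74.7% of those that rose in NT. Genes that fell in both numbered 2931, 85.9% of those that fell in KAT2A_KD and 71.2% of those that fell in NT.

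The differentiation programme rose almost as a whole. All 21 tested spinous genes, 22 of 24 granular and cornified envelope genes, all 11 SPRR genes and all 18 tested LCE genes were higher in the Differentiated libraries, and no member of these lists was lower. Beside the 21.4% of all genes that were higher, 29 of 31 lipid barrier genes and 26 of 27 desquamation proteases and inhibitors were higher, again with none lower. The median log2 change was 3.51 over the spinous list, 5.49 over the granular list, 5.73 over the SPRR list, 3.70 over the lipid list and 3.98 over the desquamation list, against -0.01 over all genes.

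Among spinous genes, KRT10, the suprabasal keratin, had 9474 and 5709 CPM in the Differentiated libraries, against 445 and 286 CPM in the Confluent libraries (log2 change 4.38, SE 0.4, adjusted p = 3.7e-08). DSC1, a desmosomal cadherin of the upper layers, had 1647 and 2223 CPM in the Differentiated libraries, against 1.2 and 1.61 CPM in the Confluent libraries (log2 change 10.44, SE 0.52, adjusted p = 3.5e-11). The cornified envelope precursor involucrin (IVL) was counted at 79.9 and 41.2 CPM in the Differentiated libraries, against 1.68 and 1.29 CPM in the Confluent libraries (log2 change 5.32, SE 0.34, adjusted p = 4.1e-10). All of these were far apart between the stages, with both Differentiated libraries above both Confluent ones. KRTDAP, a secreted differentiation-associated protein, had 6334 and 4456 CPM in the Differentiated libraries, against 23.7 and 18.1 CPM in the Confluent libraries (log2 change 8.01, SE 0.54, adjusted p = 7.2e-10). CALML5, a calcium-binding protein of the upper epidermis, had 646 and 312 CPM in the Differentiated libraries, against 0.721 and 0.646 CPM in the Confluent libraries (log2 change 9.43, SE 0.51, adjusted p = 2e-10). NOTCH3, a receptor for differentiation signals between neighbouring cells, had 160.0 and 154 CPM in the Differentiated libraries, against 23.1 and 22.2 CPM in the Confluent libraries (log2 change 2.8, SE 0.33, adjusted p = 1.1e-06). Replicate 1 was the higher Differentiated library for KRT10, IVL, KRTDAP and CALML5, and replicate 2 for DSC1.

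The granular genes given next had at most 10.8 CPM in the Confluent libraries. Others of the list were already counted there and rose less, among them KRT2, PPL and EVPL, named after their values were seen (log2 changes 0.95, 1.54 and 2.01). Filaggrin (FLG), which bundles keratin filaments, had 11081 and 3491 CPM in the Differentiated libraries, against 10.8 and 7.64 CPM in the Confluent libraries (log2 change 9.62, SE 0.94, adjusted p = 1.1e-07). The Differentiated libraries differed from each other more than 3-fold for FLG, yet both were far above the Confluent libraries. FLG2, its relative, had 4702 and 2047 CPM in the Differentiated libraries, against 2 reads in both Confluent libraries together, a ratio of 37414 with a 95% counting interval of 10357 to 308940. Repetin (RPTN), another fused-type S100 protein, had 988 and 712 CPM in the Differentiated libraries, against 1 read in the Confluent libraries (ratio 18658, interval 3348 to 736990). These intervals cover counting error only. CASP14, the protease that processes filaggrin, had 559 and 255 CPM in the Differentiated libraries, against 0.641 and 0.108 CPM in the Confluent libraries (log2 change 9.93, SE 0.85, adjusted p = 8.3e-08). Cornifelin (CNFN), a cornified envelope protein, had 224 and 204 CPM in the Differentiated libraries, against 1.68 and 0.43 CPM in the Confluent libraries (log2 change 7.56, SE 0.41, adjusted p = 6.8e-11). HOPX, a homeodomain-only cofactor of late differentiation, had 708 and 720.4 CPM in the Differentiated libraries, against 2.24 and 0.861 CPM in the Confluent libraries (log2 change 8.78, SE 0.38, adjusted p = 1.4e-11). Over the whole granular list, the genes took 2.02% and 1.07% of all counts in the Differentiated libraries, against 0.114% and 0.093% in the Confluent libraries.

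The small proline-rich proteins and the late cornified envelope proteins cross-link into the envelope, and their genes lie in one cluster of similar sequences, so counts can be shared among paralogues. SPRR1B had 2375 and 1629 CPM in the Differentiated libraries, against 61.9 and 42.3 CPM in the Confluent libraries (log2 change 5.26, SE 0.4, adjusted p = 3.8e-09). SPRR2E had 283 and 205 CPM in the Differentiated libraries, against 2.96 and 2.37 CPM in the Confluent libraries (log2 change 6.5, SE 0.45, adjusted p = 1.2e-09). LCE3D had 94.4 and 63.7 CPM in the Differentiated libraries, against 0.961 and 1.18 CPM in the Confluent libraries (log2 change 6.21, SE 0.36, adjusted p = 4e-10). LCE3E had 82.6 and 57.8 CPM in the Differentiated libraries, against 0.641 and 0.646 CPM in the Confluent libraries (log2 change 6.75, SE 0.34, adjusted p = 1.1e-10). In all of these, both Differentiated libraries stood clear of both Confluent ones. The 18 LCE genes had a median log2 change of 4.37 (4.04 with genes at 0 in a stage set at the bound of 3 counts). In NT cells the median over the same 18 genes was 6.87 (6.71 at the bound), and 0 of the 18 differences passed the threshold by edgeR. The mean log2(CPM + 1) over the list was 3.70 and 2.79 in Differentiated KAT2A_KD libraries and 3.26 and 3.46 in Differentiated NT libraries, which overlapped. In Confluent libraries it was 0.558 and 0.413 in KAT2A_KD, against 0.149 and 0.202 in NT.

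Genes of the lipid barrier rose with them. ABCA12, which loads glucosylceramide into lamellar granules, had 742 and 834 CPM in the Differentiated libraries, against 17.7 and 21.2 CPM in the Confluent libraries (log2 change 5.34, SE 0.43, adjusted p = 7.9e-09). ELOVL4, which makes ultra-long acyl chains, had 234 and 233 CPM in the Differentiated libraries, against 11.2 and 13.9 CPM in the Confluent libraries (log2 change 4.22, SE 0.24, adjusted p = 1.1e-10). DGAT2, an enzyme of triglyceride synthesis, had 205 and 236 CPM in the Differentiated libraries, against 2.4 and 2.91 CPM in the Confluent libraries (log2 change 6.38, SE 0.3, adjusted p = 2.1e-11). The stages did not overlap in any of these. SPTSSB and CD36, given next, are not members of the lipid barrier list. SPTSSB, a small subunit of serine palmitoyltransferase, had 378 and 386 CPM in the Differentiated libraries, against 0.881 and 0.43 CPM in the Confluent libraries (log2 change 9.11, SE 0.38, adjusted p = 1.5e-11). CD36, a fatty acid transporter, had 316 and 262 CPM in the Differentiated libraries, against 0.16 and 0.753 CPM in the Confluent libraries (log2 change 9.4, SE 0.52, adjusted p = 2.8e-10). CYP4F22, which hydroxylates the ultra-long fatty acids of acylceramide, had 92.9 and 53.6 CPM in the Differentiated libraries, against 2 reads in the Confluent libraries (ratio 808, counting interval 223 to 6676). Among the regulators of shedding, the inhibitor SPINK5 had 2463 and 1365 CPM in the Differentiated libraries, against 4.97 and 4.2 CPM in the Confluent libraries (log2 change 8.7, SE 0.54, adjusted p = 2.9e-10) and the kallikrein KLK7 had 114 and 74.2 CPM in the Differentiated libraries, against 1.6 and 0.861 CPM in the Confluent libraries (log2 change 6.2, SE 0.36, adjusted p = 1.3e-10). SERPINB7, a serpin of the stratum corneum, was already counted in Confluent cells and had 2010.4 and 1983 CPM in the Differentiated libraries, against 124 and 125 CPM in the Confluent libraries (log2 change 4.0, SE 0.2, adjusted p = 3.5e-11).

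**Figure D2:**
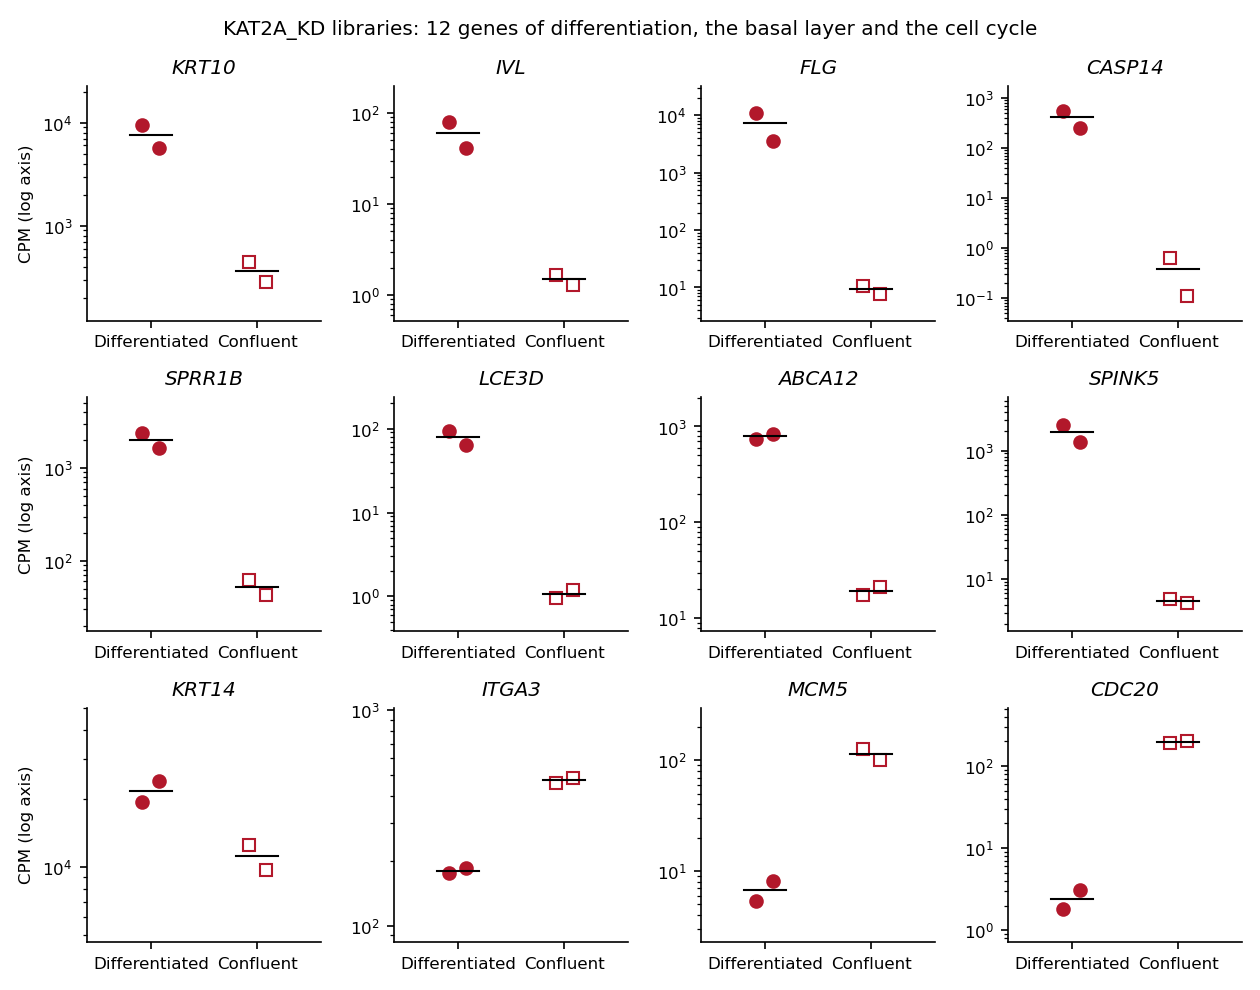
CPM (log axis) of 12 genes in the 2 Differentiated libraries (left, filled circles) and the 2 Confluent libraries (right, open squares) of KAT2A_KD. Each point is 1 library and the black bar is the mean. KRT10, FLG and the other differentiation genes sit higher in both Differentiated libraries, whereas ITGA3, MCM5 and CDC20 sit lower.

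Of 35 differentiation transcription factors tested, 27 were higher and 2 lower, beside 21.4% and 21.7% of all genes. GRHL1, a grainyhead factor of the epidermis, had 225 and 247 CPM in the Differentiated libraries, against 13.5 and 10.9 CPM in the Confluent libraries (log2 change 4.27, SE 0.36, adjusted p = 1.2e-08). KLF4, required for barrier formation in mice, had 86.6 and 73 CPM in the Differentiated libraries, against 5.29 and 8.18 CPM in the Confluent libraries (log2 change 3.58, SE 0.3, adjusted p = 1.4e-08). MAF, which promotes differentiation of epidermal progenitors, had 112 and 109 CPM in the Differentiated libraries, against 4.97 and 5.27 CPM in the Confluent libraries (log2 change 4.43, SE 0.25, adjusted p = 1e-10). Both Differentiated libraries were above both Confluent ones for these 3 factors. TP63, the master regulator of the basal epidermis, was lower, with 177 and 139 CPM in the Differentiated libraries, against 231 and 293 CPM in the Confluent libraries (log2 change -0.73, SE 0.18, adjusted p = 0.0023). The vitamin D receptor VDR also fell, with 26.3 and 28 CPM in the Differentiated libraries, against 43.4 and 40.3 CPM in the Confluent libraries (log2 change -0.63, SE 0.22, adjusted p = 0.03). Both falls were under 2-fold and did not pass in every fit with 1 library left out. The log2 change of TP63 was -0.54 without Differentiated replicate 2. That of VDR was -0.68 to -0.57 with any 1 of the 4 libraries left out.

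Basal genes moved in no common direction, beside 21.4% of all genes higher and 21.7% lower. Of 31 tested, 10 were higher (6 without Confluent replicate 2 or without Differentiated replicate 1) and 4 were lower. KRT5, a basal keratin, had 15590 and 14308 CPM in the Differentiated libraries, against 13150 and 9670.1 CPM in the Confluent libraries (log2 change 0.39, SE 0.25, adjusted p = 0.22), a difference that did not pass the test. Its partner KRT14 had 19357 and 23976 CPM in the Differentiated libraries, against 12531 and 9747 CPM in the Confluent libraries (log2 change 0.96, SE 0.27, adjusted p = 0.007), with an adjusted p of 0.079 without Confluent replicate 2. Of the laminin-binding integrin subunits, ITGA3 and ITGB4 fell, whereas ITGA6 was higher (log2 change 0.65, adjusted p = 0.037) and ITGB1 did not pass (log2 change -0.05, adjusted p = 0.857). ITGA3 had 176 and 184 CPM in the Differentiated libraries, against 459 and 486 CPM in the Confluent libraries (log2 change -1.39, SE 0.19, adjusted p = 7.9e-06). ITGB4 had 257 and 278 CPM in the Differentiated libraries, against 575 and 590.4 CPM in the Confluent libraries (log2 change -1.12, SE 0.23, adjusted p = 0.0005). CAV1, the caveolar coat protein, had 283 and 297 CPM in the Differentiated libraries, against 1298 and 1109 CPM in the Confluent libraries (log2 change -2.05, SE 0.21, adjusted p = 2.3e-07). For these 3 genes both Differentiated libraries were below both Confluent ones, as was S100A2, a calcium-binding protein of basal cells, with 1508 and 1508 CPM in the Differentiated libraries, against 5868 and 3867 CPM in the Confluent libraries (log2 change -1.69, SE 0.36, adjusted p = 0.00072).

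Of the genes of epidermal stress, 22 of 28 rose and 1 fell, beside 21.4% and 21.7% of all genes. KRT6A, a keratin of wounded and cultured epidermis, had 24513 and 26978 CPM in the Differentiated libraries, against 8939 and 6779 CPM in the Confluent libraries (log2 change 1.71, SE 0.25, adjusted p = 1.7e-05), although its counts can be shared with KRT6C. The calprotectin subunits were much higher: S100A8 had 4799.7 and 4948 CPM in the Differentiated libraries, against 54.1 and 37.3 CPM in the Confluent libraries (log2 change 6.73, SE 0.48, adjusted p = 1.7e-09). S100A9 had 8372 and 8928 CPM in the Differentiated libraries, against 192 and 137 CPM in the Confluent libraries (log2 change 5.71, SE 0.51, adjusted p = 2.8e-08). SLPI, a protease inhibitor with antimicrobial activity, had 1004 and 948 CPM in the Differentiated libraries, against 14.8 and 12.2 CPM in the Confluent libraries (log2 change 6.17, SE 0.38, adjusted p = 2.4e-10). The member that fell was the cytokine IL1B, with 24.9 and 23.9 CPM in the Differentiated libraries, against 71.5 and 62.1 CPM in the Confluent libraries (log2 change -1.45, SE 0.26, adjusted p = 0.00012). The list's median log2 change was 3.70 (2.54 with genes at 0 in a stage set at their bound).

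Most cell contact genes rose as well: 21 of 30 rose and 4 fell, beside 21.4% and 21.7% of all genes. PERP, a desmosomal protein, had 5118 and 4795 CPM in the Differentiated libraries, against 531 and 493 CPM in the Confluent libraries (log2 change 3.27, SE 0.26, adjusted p = 5.3e-09). The gap junction gene GJA1 had 2189 and 1629 CPM in the Differentiated libraries, against 118 and 101 CPM in the Confluent libraries (log2 change 4.12, SE 0.22, adjusted p = 5.9e-11). The tight junction gene CLDN4 had 128 and 112 CPM in the Differentiated libraries, against 4.48 and 3.55 CPM in the Confluent libraries (log2 change 4.89, SE 0.27, adjusted p = 6.8e-11). All these were higher in both Differentiated libraries. DSG2, the desmoglein of simple and basal epithelia, had 60.9 and 73.5 CPM in the Differentiated libraries, against 166 and 202 CPM in the Confluent libraries (log2 change -1.45, SE 0.26, adjusted p = 0.00014). The plakophilin PKP2 had 12.3 and 12.7 CPM in the Differentiated libraries, against 46.4 and 62.7 CPM in the Confluent libraries (log2 change -2.13, SE 0.29, adjusted p = 7.6e-06). Both were lower in both Differentiated libraries.

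Proliferation genes fell together. All 38 tested mitotic genes and 39 of 40 DNA replication genes were lower, beside 21.7% of all genes, with median log2 changes of -4.70 and -3.02. CDC20, the activator of the anaphase-promoting complex whose promoter is printed above, had 1.8 and 3.05 CPM in the Differentiated libraries, against 189 and 201 CPM in the Confluent libraries (log2 change -6.33, SE 0.28, adjusted p = 1.4e-11). PLK1, a mitotic kinase, had 1.23 and 1.62 CPM in the Differentiated libraries, against 85.4 and 83.4 CPM in the Confluent libraries (log2 change -5.89, SE 0.38, adjusted p = 4e-10), and cyclin B1 (CCNB1) had 8.11 and 4.58 CPM in the Differentiated libraries, against 232 and 212 CPM in the Confluent libraries (log2 change -5.12, SE 0.36, adjusted p = 1.2e-09). Every mitotic gene had both Differentiated libraries below both Confluent ones, as did 36.3% of all genes. The proliferation marker MKI67 had 6.22 and 7.54 CPM in the Differentiated libraries, against 177 and 262 CPM in the Confluent libraries (log2 change -4.99, SE 0.44, adjusted p = 2.8e-08). FOXM1, a transcription factor of mitotic genes, had 1.47 and 1.44 CPM in the Differentiated libraries, against 47.6 and 51.1 CPM in the Confluent libraries (log2 change -5.07, SE 0.26, adjusted p = 4.3e-11). Of the replication genes, the helicase subunit MCM5 had 5.32 and 8.08 CPM in the Differentiated libraries, against 127 and 101 CPM in the Confluent libraries (log2 change -4.09, SE 0.22, adjusted p = 6.8e-11) and the GINS subunit GINS2 had 1.15 and 1.08 CPM in the Differentiated libraries, against 62.4 and 53.3 CPM in the Confluent libraries (log2 change -5.69, SE 0.28, adjusted p = 3.1e-11). PCNA, the sliding clamp, fell less and had 34.7 and 47.7 CPM in the Differentiated libraries, against 292 and 237 CPM in the Confluent libraries (log2 change -2.68, SE 0.22, adjusted p = 9.8e-09). CCNE1 was the replication list's member that did not pass the test.

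Of 30 CDK inhibitors and p53 targets, 16 were higher and 6 lower, beside 21.4% and 21.7% of all genes. The lower share was near that of all genes. CDKN1A (p21) had 710.1 and 696 CPM in the Differentiated libraries, against 309.8 and 281 CPM in the Confluent libraries (log2 change 1.25, SE 0.18, adjusted p = 1.8e-05), and CDKN2B (p15) had 337 and 329.5 CPM in the Differentiated libraries, against 9.45 and 17.9 CPM in the Confluent libraries (log2 change 4.62, SE 0.56, adjusted p = 1.6e-06). The p53 targets DDB2, of nucleotide excision repair, and FAS, a death receptor, fell: DDB2 had 21.1 and 26.9 CPM in the Differentiated libraries, against 67.8 and 62.3 CPM in the Confluent libraries (log2 change -1.44, SE 0.19, adjusted p = 3.8e-06). FAS had 4.01 and 3.95 CPM in the Differentiated libraries, against 12.6 and 15.8 CPM in the Confluent libraries (log2 change -1.83, SE 0.29, adjusted p = 4e-05). In the MYC network and ribosome biogenesis list, 29 of 35 were lower and 2 higher, beside 21.7% and 21.4% of all genes. The members that rose were the MYC antagonists MXD1, with 42 and 35.2 CPM in the Differentiated libraries, against 4.16 and 6.67 CPM in the Confluent libraries (log2 change 2.85, SE 0.28, adjusted p = 1.3e-07), and MXI1, with 57.8 and 45.4 CPM in the Differentiated libraries, against 8.33 and 7.1 CPM in the Confluent libraries (log2 change 2.74, SE 0.24, adjusted p = 2.3e-08). NPM1, a nucleolar chaperone, had 264 and 236 CPM in the Differentiated libraries, against 967 and 814 CPM in the Confluent libraries (log2 change -1.83, SE 0.28, adjusted p = 2.3e-05). The stages did not overlap for any of these 7 genes. LMNB1, a nuclear lamina gene that declines in cells that stop dividing, had 2.13 and 1.53 CPM in the Differentiated libraries, against 39.5 and 54.4 CPM in the Confluent libraries (log2 change -4.67, SE 0.29, adjusted p = 2.9e-10).

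Interferon-stimulated genes rose in KAT2A_KD cells while most of them fell in NT cells. Of 42 tested interferon-stimulated genes, 25 rose in Differentiated KAT2A_KD cells, 15 of them by more than 2-fold, and 1 fell, beside 21.4% of all genes higher and 21.7% lower. Their median log2 change was 1.30. In NT cells 2 of the same 42 rose and 34 fell, beside 24.3% and 26.1% of all genes, with a median of -2.41. The difference between the genotypes in this change passed the test for 27 of the 42, all of them higher in KAT2A_KD, beside 0.489% of all genes (77 genes higher, of which these 27 are 35.1%), and all 42 differences were above 0 (median 3.49). The list does not hold every interferon-responsive gene. IFITM1, IFITM2, IFITM3 and IFIT1B, named after their values were seen, lie outside it and were among the 77 (log2 differences 3.48, 2.63, 2.71 and 5.7). The 77 genes were joined by 20 with a lower change in KAT2A_KD than in NT (0.127%), and 48.4% of all differences tested were below 0. Together these are 97 genes (0.616%). The split of 77 higher and 20 lower became 153 and 119 with no filter on low counts, 133 and 60 with DESeq2 and 42 and 31 with Subconfluent cells as the baseline. That count fell to 57 and 58 without Confluent replicate 1 and 2 of KAT2A_KD, to 52 without Confluent replicate 2 of NT and to 45 without Differentiated replicate 2 of NT.

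**Figure D3:**
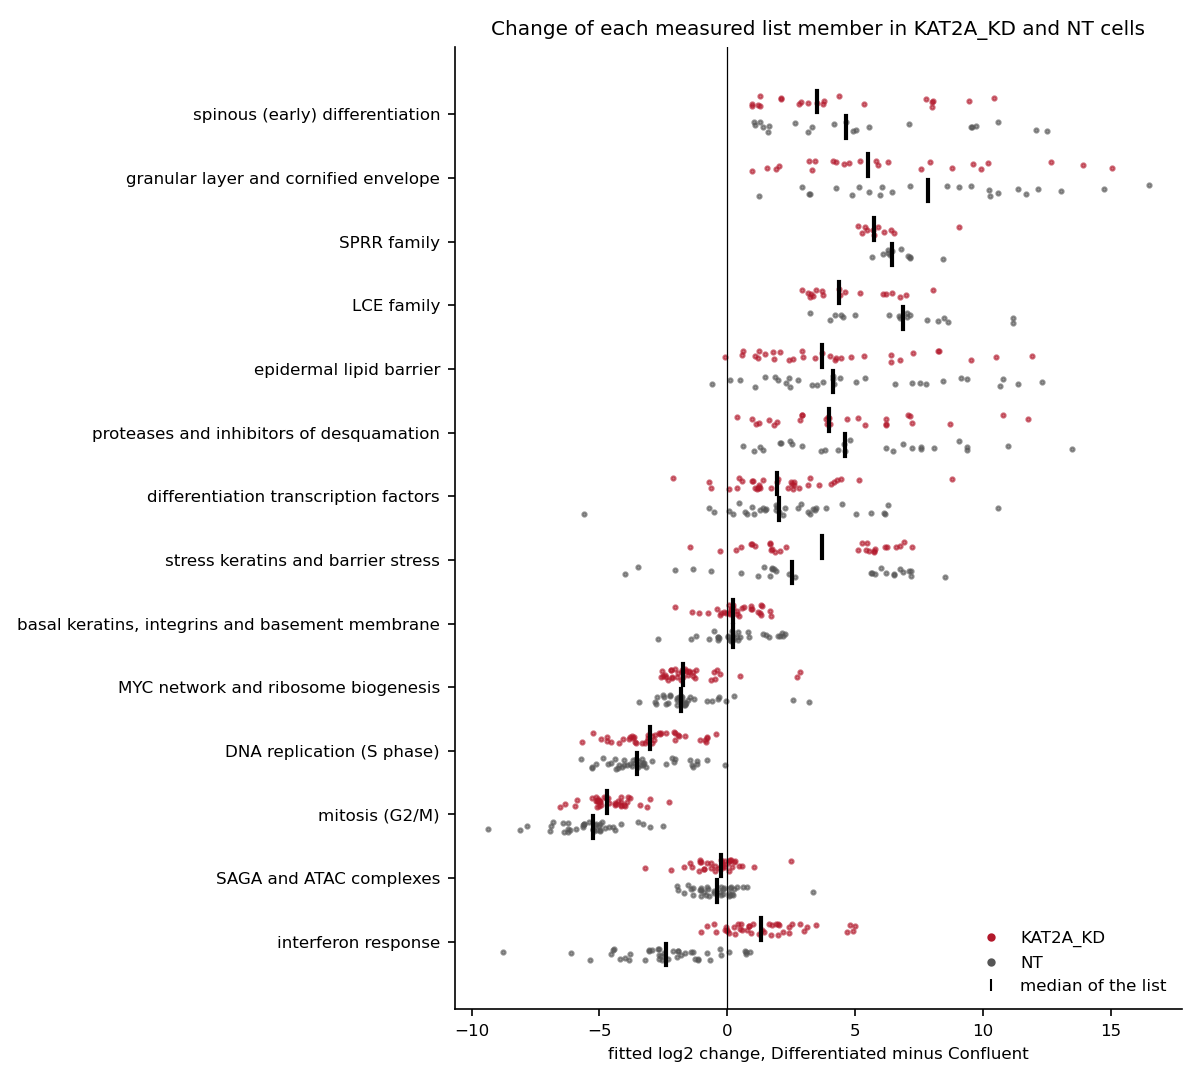
Log2 change from Confluent to Differentiated (horizontal axis) of the tested members of each gene list, with KAT2A_KD above NT. Each point is 1 gene and the black bar is the list's median; fitted changes of genes at or near 0 in a stage depend on the fit. The interferon list lies on opposite sides of 0 in the genotypes, with medians of 1.30 in KAT2A_KD and -2.41 in NT, whereas the differentiation and cell cycle lists lie on the same side in both.

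By library, MX1, a GTPase that blocks virus replication, had 150.1 and 122 CPM in Differentiated, against 23.9 and 27.4 CPM in Confluent KAT2A_KD libraries (log2 change 2.41, SE 0.41, adjusted p = 9e-05), and 47.3 and 36.9 CPM in Differentiated, against 353 and 350.1 CPM in Confluent NT libraries (log2 difference 5.47, SE 0.58, adjusted p = 3.4e-05). IFIT1, which binds viral RNA, had 38.1 and 20.4 CPM in Differentiated, against 5.77 and 7.1 CPM in Confluent KAT2A_KD libraries (log2 change 2.19, SE 0.38, adjusted p = 0.0001), and 2.89 and 3.87 CPM in Differentiated, against 67.4 and 78.9 CPM in Confluent NT libraries (log2 difference 6.62, SE 0.56, adjusted p = 2e-06). IFI44L, a gene induced by type I interferon, had 14.2 and 19.8 CPM in Differentiated, against 0.961 and 0 CPM in Confluent KAT2A_KD libraries (log2 change 4.97, SE 0.84, adjusted p = 7.7e-05), and 2.8 and 1.79 CPM in Differentiated, against 24.3 and 40.7 CPM in Confluent NT libraries (log2 difference 8.78, SE 1.1, adjusted p = 0.00017). For all 3, the Confluent NT libraries were the highest of these 8 libraries, and in KAT2A_KD both Differentiated libraries were above both Confluent ones. IFI6, an antiviral membrane protein, had 408 and 647 CPM in Differentiated, against 17.3 and 21 CPM in Confluent KAT2A_KD libraries (log2 change 4.79, SE 0.53, adjusted p = 5.4e-07), and 211 and 269.8 CPM in Differentiated, against 221 and 369 CPM in Confluent NT libraries (log2 difference 5.08, SE 0.68, adjusted p = 0.00034). IFI27, a mitochondrial interferon-induced protein, had 339 and 388 CPM in Differentiated, against 16.7 and 11.3 CPM in Confluent KAT2A_KD libraries (log2 change 4.69, SE 0.38, adjusted p = 1e-08), and 144 and 235 CPM in Differentiated, against 86.5 and 146 CPM in Confluent NT libraries (log2 difference 3.98, SE 0.48, adjusted p = 0.00013). For these 2 genes the Differentiated KAT2A_KD libraries were the highest of the 8.

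The same direction held for other effectors and for IRF9. OAS1, an RNA sensor that activates RNase L, had 42.6 and 27.9 CPM in the Differentiated libraries, against 7.45 and 4.63 CPM in the Confluent libraries of KAT2A_KD (log2 change 2.53, SE 0.41, adjusted p = 4.7e-05), and its change differed from that of NT (log2 difference 4.86, SE 0.57, adjusted p = 8.5e-05). MX2, the relative of MX1, had 53.6 and 44.4 CPM in the Differentiated libraries, against 3.36 and 5.59 CPM in the Confluent libraries (log2 change 3.47, SE 0.48, adjusted p = 8.4e-06). IFI44 had 23.2 and 22.6 CPM in the Differentiated libraries, against 3.12 and 2.04 CPM in the Confluent libraries (log2 change 3.13, SE 0.41, adjusted p = 3.8e-06). EPSTI1, an interferon-induced gene of epithelial cells, had 21.3 and 17.2 CPM in the Differentiated libraries, against 2.8 and 1.94 CPM in the Confluent libraries (log2 change 3.0, SE 0.31, adjusted p = 1.7e-07). IRF9, a factor that binds the response element, had 64.6 and 71 CPM in the Differentiated libraries, against 18.2 and 18.5 CPM in the Confluent libraries (log2 change 1.89, SE 0.26, adjusted p = 7.6e-06). In all of these, both Differentiated libraries were above both Confluent ones. In NT, IRF9 had 38.5 and 52.4 CPM when Differentiated, against 55.9 and 50.9 CPM when Confluent, and these stages overlapped.

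Some members did not pass the test within KAT2A_KD and differed from NT, where they fell. ISG15, a ubiquitin-like modifier, had 25.5 and 26.5 CPM in Differentiated, against 18.3 and 16.2 CPM in Confluent KAT2A_KD libraries (log2 change 0.59, SE 0.48, adjusted p = 0.34), and 5.69 and 7.26 CPM in Differentiated, against 130.2 and 157 CPM in Confluent NT libraries (log2 difference 5.06, SE 0.71, adjusted p = 0.00058). USP18, the protease that removes ISG15, had 5.16 and 5.21 CPM in the Differentiated libraries, against 5.13 and 5.92 CPM in the Confluent libraries (log2 change -0.09, SE 0.39, adjusted p = 0.88), and its change differed from that of NT (log2 difference 4.1, SE 0.59, adjusted p = 0.00067). IFIT2 had 8.02 and 2.78 CPM in the Differentiated libraries, against 4.24 and 4.73 CPM in the Confluent libraries (log2 change 0.28, SE 0.51, adjusted p = 0.7), and its log2 change was -0.68 without Differentiated replicate 1. IFIT3 rose, with 30.2 and 15.1 CPM in the Differentiated libraries, against 12.3 and 10.3 CPM in the Confluent libraries (log2 change 1.0, SE 0.32, adjusted p = 0.015), but had an adjusted p of 0.101 without Confluent replicate 2 and 0.369 without Differentiated replicate 1. The only list member that fell, the transcription factor IRF1, had 7.94 and 11.4 CPM in the Differentiated libraries, against 18.8 and 20.4 CPM in the Confluent libraries (log2 change -1.02, SE 0.34, adjusted p = 0.019), with adjusted p of 0.0521, 0.0756 and 0.171 without Confluent replicate 1, Confluent replicate 2 and Differentiated replicate 1. With any 1 of the 8 libraries left out, 21 to 26 interferon genes still had a higher change in KAT2A_KD than in NT.

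Averaged over the 42 genes, the mean log2(CPM + 1) of KAT2A_KD was 2.73 and 2.80 in Subconfluent, 3.12 and 3.19 in Confluent and 4.49 and 4.34 in Differentiated libraries. For NT it was 3.63 and 3.42, 5.02 and 5.35, and 3.40 and 3.19 at these stages. The 2 Confluent NT libraries were the highest of all 24. With Subconfluent cells in place of Confluent cells as the baseline, 28 interferon genes rose and 1 fell in KAT2A_KD, and 16 changed more than in NT with none less, a median difference of 2.14. This baseline replaces the Confluent libraries of both genotypes. With it the differences of IFI6, ISG15 and EPSTI1 from NT did not pass (adjusted p = 0.073, 0.107 and 0.354).

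**Figure D4:**
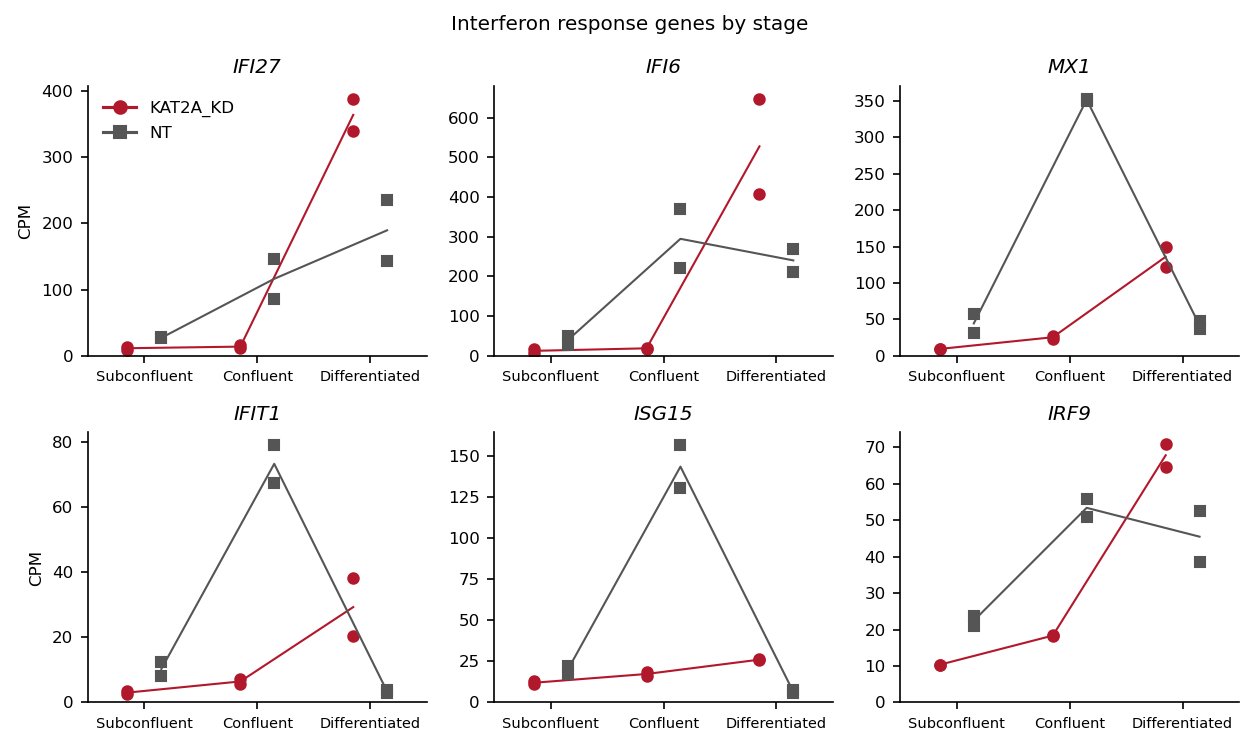
CPM (vertical axes, linear from 0) of 6 interferon-stimulated genes by stage, Subconfluent, Confluent and Differentiated, with KAT2A_KD left of NT. Each point is 1 library and the lines join the means of 2 libraries. All 6 KAT2A_KD lines are highest when Differentiated, whereas MX1, IFIT1 and ISG15 peak in the Confluent libraries of NT.

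Antigen presentation genes, many of them interferon-responsive, moved both ways in KAT2A_KD: 7 of 16 rose and 4 fell, beside 21.4% and 21.7% of all genes. HLA-B, a class I heavy chain, had 4649.7 and 5050.1 CPM in the Differentiated libraries, against 1710.4 and 1707 CPM in the Confluent libraries (log2 change 1.51, SE 0.27, adjusted p = 0.00016). Its light chain B2M had 601 and 779 CPM in the Differentiated libraries, against 229 and 168 CPM in the Confluent libraries (log2 change 1.8, SE 0.23, adjusted p = 4.3e-06). PSMB9, an immunoproteasome subunit, had 58.3 and 77.6 CPM in the Differentiated libraries, against 281 and 178 CPM in the Confluent libraries (log2 change -1.76, SE 0.34, adjusted p = 0.00032). NT fell further, to 25.9 and 24.1 CPM when Differentiated, against 462 and 378 CPM when Confluent (log2 difference 2.31, SE 0.48, adjusted p = 0.027). The PSMB9 difference from NT passed with Confluent or Differentiated replicate 1 of KAT2A_KD left out, but with each of the other 6 libraries left out its adjusted p was 0.0558 to 0.16, and with Subconfluent cells as the baseline 0.291. NLRC5, the transactivator of class I genes, had 1.06 and 1.44 CPM in the Differentiated libraries, against 4.32 and 5.49 CPM in the Confluent libraries (log2 change -1.96, SE 0.5, adjusted p = 0.0032).

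Of the 27 genes that rose in KAT2A_KD and fell in NT, 17 were in the interferon list and 22 passed the test of the difference. IFITM1 and IFIT1B, outside the list, were also among the 27. In the other direction, 3 genes fell in KAT2A_KD and rose in NT: HR, MBD6 and YARS, named after their values were seen. HR, a nuclear corepressor of the hair follicle, had 57.6 and 40.1 CPM in Differentiated, against 65.3 and 73.9 CPM in Confluent KAT2A_KD libraries, and 149 and 148 CPM in Differentiated, against 83 and 67.7 CPM in Confluent NT libraries, and its difference passed (log2 difference -1.49, SE 0.27, adjusted p = 0.0083). That difference had an adjusted p of 0.0557, 0.0731 and 0.0889 without Confluent replicate 2 of KAT2A_KD, Differentiated replicate 2 of KAT2A_KD and Confluent replicate 2 of NT. The differences of MBD6 and YARS did not pass (adjusted p = 0.0501 and 0.067). The falls within KAT2A_KD did not pass with 1 library left out: adjusted p reached 0.425 for HR, 0.261 for MBD6 and 0.471 for YARS.

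**Figure D5:**
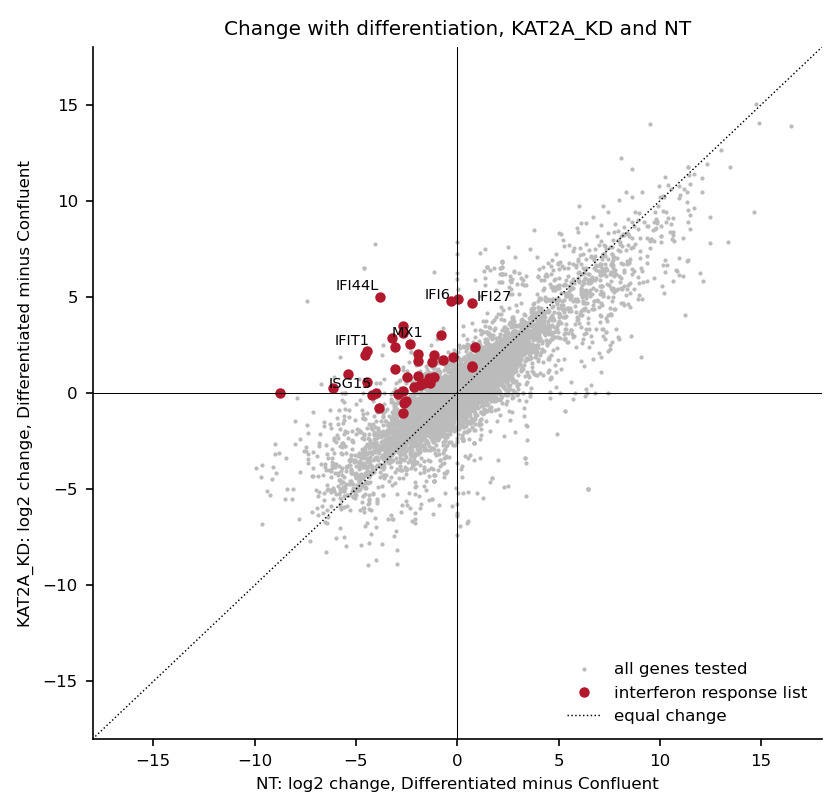
Fitted log2 change from Confluent to Differentiated of each of the 15757 genes, in KAT2A_KD (vertical axis) and in NT (horizontal axis), with the 42 interferon-stimulated genes in red and a dotted line where the changes are equal. Fitted changes of genes at or near 0 in a stage depend on the fit. MX1, IFIT1 and many other interferon genes lie above 0 in KAT2A_KD and below 0 in NT, away from the dotted line.

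Outside the interferon list, most differentiation genes changed less in KAT2A_KD than in NT, but few passed the test of that difference. Differences were below 0 for 20 of 21 spinous, 23 of 24 granular and all 18 LCE genes, beside 48.4% of all genes. Levels of the spinous and granular lists differed at both stages. The mean log2(CPM + 1) of spinous genes in Confluent libraries was 5.59 and 5.28 in KAT2A_KD, against 5.14 and 4.93 in NT. That of granular genes was 2.44 and 2.25, against 2.02 and 1.94. In Differentiated libraries the spinous values were 9.61 and 9.37, against 9.82 and 9.78 in NT, and the granular values 7.29 and 6.73, against 7.46 and 7.35. The SPRR list also had 10 of 11 differences below 0, but its Differentiated values were higher in KAT2A_KD, 7.92 and 7.46, against 7.19 and 7.14 in NT. Its Confluent values were 2.64 and 2.46 in KAT2A_KD, against 1.81 and 1.52 in NT. Past the threshold was 1 gene of the spinous list and none of the granular or LCE lists. At an unadjusted p under 0.05 the counts were 10, 7 and 5, beside 638 of all 15757 genes lower. DESeq2 called 2, 2 and 1, beside 60 of all genes lower. SBSN (suprabasin), the spinous gene, had 494 and 268 CPM in the Differentiated libraries, against 2.08 and 1.29 CPM in the Confluent libraries of KAT2A_KD, and 585 and 379.8 CPM in the Differentiated NT libraries, against 2 reads in both Confluent NT libraries together (log2 difference -4.7, SE 1.03, adjusted p = 0.039). The Differentiated libraries of both genotypes were alike in range, and the difference lay in the Confluent libraries. It passed without Differentiated replicate 1 of KAT2A_KD, but with each of the other 7 libraries left out its adjusted p was 0.0547 to 0.276. With so few Confluent NT reads the SBSN value depends on the fit, and it was -7.85 and -3.72 without Confluent replicate 1 and 2 of NT. With Subconfluent cells as the baseline its adjusted p was 0.539.

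In MAF, CCDC3 and ALDH5A1 too, the Differentiated libraries of both genotypes were closer than the Confluent ones. MAF had 112 and 109 CPM in Differentiated, against 4.97 and 5.27 CPM in Confluent KAT2A_KD libraries, and 111 and 106 CPM in Differentiated, against 1.26 and 1.49 CPM in Confluent NT libraries (log2 difference -1.85, SE 0.36, adjusted p = 0.014). CCDC3, a secreted coiled-coil protein, had 104 and 86.9 CPM in Differentiated, against 12.7 and 15 CPM in Confluent KAT2A_KD libraries, and 94.1 and 94.6 CPM in Differentiated, against 2.83 and 2.06 CPM in Confluent NT libraries (log2 difference -2.48, SE 0.34, adjusted p = 0.0004). ALDH5A1, succinate semialdehyde dehydrogenase, had 18.4 and 20.3 CPM in Differentiated, against 2.24 and 2.37 CPM in Confluent KAT2A_KD libraries, and 25.5 and 21 CPM in Differentiated, against 0.236 and 0.356 CPM in Confluent NT libraries (log2 difference -3.17, SE 0.52, adjusted p = 0.0027). In these, both Confluent KAT2A_KD libraries were above both Confluent NT libraries. PGLYRP3, a peptidoglycan recognition protein, had 45.9 and 43.2 CPM in the Differentiated libraries, against 1.04 and 0.538 CPM in the Confluent libraries of KAT2A_KD, and 71.7 and 67.5 CPM in the Differentiated NT libraries, against 3 reads in both Confluent NT libraries together (log2 difference -3.41, SE 0.69, adjusted p = 0.025), and its Differentiated libraries did not overlap between the genotypes. With Subconfluent cells as the baseline the differences of MAF, ALDH5A1 and UNC5B did not pass (adjusted p = 0.291, 0.277 and 0.0563). The MAF difference had an adjusted p of 0.0515 to 0.112 without either Confluent library of KAT2A_KD or of NT or without Differentiated replicate 2 of KAT2A_KD. That of PGLYRP3 was 0.0522 to 0.292 without either Confluent NT library, Confluent replicate 1 of KAT2A_KD, or Differentiated replicate 2 of KAT2A_KD or of NT. UNC5B, a netrin receptor, had 8.84 and 15.1 CPM in Differentiated, against 7.13 and 5.06 CPM in Confluent KAT2A_KD libraries, and 38.9 and 40.8 CPM in Differentiated, against 3.85 and 3.27 CPM in Confluent NT libraries (log2 difference -2.52, SE 0.53, adjusted p = 0.031), which passed only in full and without Confluent or Differentiated replicate 2 of KAT2A_KD (0.0693 to 0.168 without each of the other 6 libraries).

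LCP1 (L-plastin), an actin-bundling protein best known from leukocytes, fell in KAT2A_KD, with 2.05 and 1.35 CPM in the Differentiated libraries, against 14.2 and 18 CPM in the Confluent libraries (log2 change -3.23, SE 0.4, adjusted p = 2.2e-06). In NT it had 1.66 and 2.55 CPM when Differentiated, against 0.942 and 1.78 CPM when Confluent (log2 difference -3.84, SE 0.6, adjusted p = 0.0017). The Confluent KAT2A_KD libraries were the high ones among these 8. VIM, IL1B and MAD2L1 fell less in KAT2A_KD than in NT. MAD2L1 is a mitotic gene, and 35 of 38 mitotic differences were above 0 (median 0.86), beside 8129 of all 15757 genes. Of DNA replication differences 32 of 40 were above 0 (median 0.39). Past the threshold were 1 and 0 genes. At an unadjusted p under 0.05, 14 and 8 were higher and 1 and 1 lower, beside 861 and 638 of all genes. DESeq2 called 3 and 0 higher, beside 133 of all genes. VIM (vimentin), a mesenchymal intermediate filament, had 8.43 and 6.02 CPM in Differentiated, against 34 and 24.6 CPM in Confluent KAT2A_KD libraries, and 3.77 and 1.79 CPM in Differentiated, against 75.9 and 75.5 CPM in Confluent NT libraries (log2 difference 2.73, SE 0.47, adjusted p = 0.0049, and 0.0627 without Differentiated NT replicate 2). An antisense gene overlaps VIM, and the strand setting of the counting is not given in the sources used here. IL1B had 24.9 and 23.9 CPM in Differentiated, against 71.5 and 62.1 CPM in Confluent KAT2A_KD libraries, and 6.04 and 9.52 CPM in Differentiated, against 93.2 and 83.7 CPM in Confluent NT libraries (log2 difference 2.05, SE 0.37, adjusted p = 0.0069), with an adjusted p of 0.0549 without Confluent KAT2A_KD replicate 2 or without Differentiated NT replicate 1, and of 0.0668 with Subconfluent cells as the baseline. MAD2L1, a spindle checkpoint gene, had 3.85 and 2.87 CPM in Differentiated, against 55.6 and 44.1 CPM in Confluent KAT2A_KD libraries, and 0.788 and 0.566 CPM in Differentiated, against 46 and 52.6 CPM in Confluent NT libraries (log2 difference 2.28, SE 0.42, adjusted p = 0.01). Its adjusted p was 0.0532, 0.0669 and 0.124 without Confluent replicate 2 of KAT2A_KD, Differentiated replicate 1 of KAT2A_KD and Differentiated replicate 2 of NT.

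Against KAT2B_KD, the change in KAT2A_KD was higher for 8 genes (0.0508%) and lower for 3 (0.019%), 0.0698% in all. Against KAT2AB_KD it was higher for 1 (0.00635%) and lower for 0. DESeq2 called 83 genes in the contrast with KAT2B_KD and 22 in that with KAT2AB_KD. In KAT2B_KD 10 of the 42 interferon genes rose and 6 fell (median log2 change 0.15), beside 19.3% and 20.3% of all genes. In KAT2AB_KD 11 rose and 7 fell (median -0.04), beside 22.6% and 23.6% of all genes. The interferon differences of KAT2A_KD were above 0 for 40 of 42 genes from KAT2B_KD (median 1.44) and for 41 of 42 from KAT2AB_KD (median 1.32). Past the threshold were 2 and 0 of them. At an unadjusted p under 0.05 there were 18 and 21, and DESeq2 called 6 and 4. The 2 were IFI27 and IFIT3. The other genes higher than in KAT2B_KD were ZBED2, PTHLH, ALDH1A3, PORCN, AMIGO2 and SLC37A2, named after their values were seen. Their log2 differences were 2.23, 1.91, 1.83, 1.785, 1.71 and 1.61. IFI27 had 339 and 388 CPM in Differentiated, against 16.7 and 11.3 CPM in Confluent KAT2A_KD libraries, and 58.5 and 36.1 CPM in Differentiated, against 12.5 and 11.5 CPM in Confluent KAT2B_KD libraries (log2 difference 2.71, SE 0.49, adjusted p = 0.035, up to 0.256 with 1 library left out). IFIT3 had 30.2 and 15.1 CPM in Differentiated, against 12.3 and 10.3 CPM in Confluent KAT2A_KD libraries, and 2.62 and 2.47 CPM in Differentiated, against 8.16 and 10.1 CPM in Confluent KAT2B_KD libraries (log2 difference 2.84, SE 0.48, adjusted p = 0.025, up to 0.21 with 1 library left out).

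The genes lower than in KAT2B_KD were SLC8A1, PLA2G4F and IPO4, and the gene higher than in KAT2AB_KD was NEFL, named after their values were seen. SLC8A1, a sodium-calcium exchanger, had 0 reads in Differentiated KAT2A_KD libraries, against 98 reads in Confluent ones, at least 35-fold lower when 3 counts over the group bound the zero. KAT2B_KD had 0.935 and 1.05 CPM when Differentiated, against 3.34 and 3.57 CPM when Confluent (adjusted p of the difference = 0.021). KAT2AB_KD also had 0 CPM when Differentiated, against 3.54 and 2.36 CPM when Confluent. NT had 0.175 and 0.283 CPM, against 4.55 and 5.48 CPM. PLA2G4F, a cytosolic phospholipase, had 26.2 and 25.6 CPM in Differentiated, against 3.52 and 2.26 CPM in Confluent KAT2A_KD libraries, and 66.8 and 59.9 CPM in Differentiated, against 1.34 and 0.675 CPM in Confluent KAT2B_KD libraries (adjusted p = 0.026). Its log2 change was 3.14 in KAT2A_KD, 2.24 in KAT2AB_KD, 5.92 in KAT2B_KD and 5.48 in NT. IPO4, a nuclear import receptor, had 5.4 and 5.75 CPM in Differentiated, against 70.9 and 63.4 CPM in Confluent KAT2A_KD libraries, and 14.3 and 14.9 CPM in Differentiated, against 70.9 and 66.7 CPM in Confluent KAT2B_KD libraries (adjusted p = 0.026). Its log2 change was -3.59 in KAT2A_KD, -3.59 in KAT2AB_KD, -2.24 in KAT2B_KD and -2.95 in NT. NEFL, a neurofilament subunit, had 7.86 and 7.63 CPM in Differentiated, against 15.1 and 13.2 CPM in Confluent KAT2A_KD libraries, and 1.65 and 2.28 CPM in Differentiated, against 18.9 and 27.9 CPM in Confluent KAT2AB_KD libraries (log2 difference 2.69, adjusted p = 0.014). These calls did not hold with every library left out. For IPO4 the log2 difference nevertheless stayed between -1.43 and -1.29 (-1.35 in full). With each library of the contrast left out in turn, adjusted p reached 0.207 for SLC8A1, 0.24 for PLA2G4F, 0.211 for IPO4 and 0.197 for NEFL. No gene was lower or higher than in KAT2B_KD without Confluent replicate 1, Confluent replicate 2 or Differentiated replicate 1 of KAT2A_KD or without Confluent replicate 1 of KAT2B_KD.

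Among the 36 tested subunits of SAGA and ATAC, 2 rose and 10 fell, beside 21.4% and 21.7% of all genes. USP22, the deubiquitinase of SAGA, had 61.3 and 60.2 CPM in the Differentiated libraries, against 117 and 135 CPM in the Confluent libraries (log2 change -1.05, SE 0.19, adjusted p = 0.00015). SF3B3, a splicing factor shared with SAGA, had 83.2 and 79.9 CPM in the Differentiated libraries, against 178 and 179 CPM in the Confluent libraries (log2 change -1.13, SE 0.16, adjusted p = 1.3e-05). WDR5, the ATAC subunit shared with histone methyltransferases, had 8.76 and 14.4 CPM in the Differentiated libraries, against 38.4 and 35.5 CPM in the Confluent libraries (log2 change -1.68, SE 0.23, adjusted p = 9.6e-06). POLE3, a histone-fold subunit, had 23.4 and 23.9 CPM in the Differentiated libraries, against 74.9 and 57 CPM in the Confluent libraries (log2 change -1.48, SE 0.23, adjusted p = 3.5e-05). Its partner POLE4 had 15 and 14.5 CPM in the Differentiated libraries, against 42.9 and 33.8 CPM in the Confluent libraries (log2 change -1.38, SE 0.28, adjusted p = 0.00045). TAF9B, a histone-fold protein of SAGA, had 13.3 and 13.2 CPM in the Differentiated libraries, against 26.3 and 29.3 CPM in the Confluent libraries (log2 change -1.07, SE 0.23, adjusted p = 0.00084). Both Differentiated libraries were below both Confluent ones for all of these. The other members that fell did not pass in every fit with 1 library left out. TADA3, of the acetyltransferase module, fell (log2 change -0.65, adjusted p = 0.029) with 0.319 without Confluent replicate 1 and 0.246 without Differentiated replicate 1. TAF5L fell (log2 change -1.02, adjusted p = 0.008) with 0.074 and 0.127 without Confluent and Differentiated replicate 2. TAF9 (log2 change -0.93, adjusted p = 0.0054) had 0.0704 and 0.0552 without Confluent and Differentiated replicate 1, and USP27X (log2 change -2.2, adjusted p = 0.0059) had 0.0873 without Differentiated replicate 2. The members that rose were KAT2B, given above, and MBIP, of ATAC, with 10.4 and 10.9 CPM in the Differentiated libraries, against 6.81 and 3.34 CPM in the Confluent libraries (log2 change 1.05, SE 0.32, adjusted p = 0.013, and 0.178 without Confluent replicate 2). None of the 36 differed from NT in this change past the threshold.

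Other acetylation genes moved in no common direction, beside 21.4% of all genes higher and 21.7% lower. Of 20 other lysine acetyltransferases 3 rose and 7 fell (4 without either Differentiated library). NCOA1, a steroid receptor coactivator, had 22.6 and 26.9 CPM in the Differentiated libraries, against 5.61 and 11.9 CPM in the Confluent libraries (log2 change 1.51, SE 0.31, adjusted p = 0.00059). ESCO2, which acetylates cohesin in S phase, had 0.409 and 0.18 CPM in the Differentiated libraries, against 16.1 and 20.2 CPM in the Confluent libraries (log2 change -5.88, SE 0.52, adjusted p = 2.8e-08). Of 18 lysine deacetylases 4 rose (2, 1 and 1 without Confluent replicate 1, Confluent replicate 2 and Differentiated replicate 1) and 3 fell (1 without Confluent replicate 1 or without either Differentiated library). HDAC5, a class IIa enzyme, had 72.7 and 64.5 CPM in the Differentiated libraries, against 13.7 and 11.9 CPM in the Confluent libraries (log2 change 2.42, SE 0.25, adjusted p = 1.9e-07). HDAC1, a class I enzyme, had 85.6 and 77.9 CPM in the Differentiated libraries, against 169.6 and 142 CPM in the Confluent libraries (log2 change -0.93, SE 0.2, adjusted p = 0.00081). Of 34 bromodomain and reader genes 5 rose (3 without Confluent replicate 1) and 10 fell (6 without Differentiated replicate 2). ATAD2, a bromodomain ATPase of dividing cells, had 7.78 and 11.8 CPM in the Differentiated libraries, against 33.4 and 46.4 CPM in the Confluent libraries (log2 change -2.03, SE 0.3, adjusted p = 1.9e-05). The corepressor TRIM28 had 67.2 and 74.5 CPM in the Differentiated libraries, against 252 and 219 CPM in the Confluent libraries (log2 change -1.73, SE 0.18, adjusted p = 2.7e-07).

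The counts of the following lists stand beside 21.4% of all genes higher and 21.7% lower. In the mesenchymal and TGF-beta list 8 of 28 rose and 8 fell. Fibronectin (FN1) had 546 and 503 CPM in the Differentiated libraries, against 2962 and 2901 CPM in the Confluent libraries (log2 change -2.48, SE 0.45, adjusted p = 0.00017), and thrombospondin (THBS1) had 531 and 463 CPM in the Differentiated libraries, against 2344 and 2658 CPM in the Confluent libraries (log2 change -2.33, SE 0.25, adjusted p = 4.1e-07), both lower. SKIL, a feedback repressor of TGF-beta signalling, had 168 and 117 CPM in the Differentiated libraries, against 5.85 and 9.15 CPM in the Confluent libraries (log2 change 4.26, SE 0.25, adjusted p = 1.5e-10). The collagen cross-linker LOX had 45.2 and 24.4 CPM in the Differentiated libraries, against 1.28 and 2.04 CPM in the Confluent libraries (log2 change 4.41, SE 0.45, adjusted p = 2.1e-07). Both were higher in both Differentiated libraries. Of 22 matrix metalloproteases and inhibitors 10 rose and 4 fell (2 without Differentiated replicate 2). MMP9, a gelatinase, had 52.1 and 43.6 CPM in the Differentiated libraries, against 1.52 and 3.23 CPM in the Confluent libraries (log2 change 4.36, SE 0.58, adjusted p = 5.5e-06). Of 26 Notch pathway genes 10 rose (6 without Confluent replicate 1 or without Differentiated replicate 1) and 3 fell (1 without Confluent replicate 2 or without Differentiated replicate 1). LFNG, a glycosyltransferase of Notch receptors, had 4.42 and 4.4 CPM in the Differentiated libraries, against 20.3 and 19.6 CPM in the Confluent libraries (log2 change -2.18, SE 0.23, adjusted p = 3.1e-07). In the EGF receptor list 5 of 18 rose and 4 fell, shares near those of all genes: the receptor ERBB3 had 60.9 and 83 CPM in the Differentiated libraries, against 15.7 and 16.7 CPM in the Confluent libraries (log2 change 2.15, SE 0.27, adjusted p = 2.7e-06). Its ligand NRG1 had 5.4 and 7.45 CPM in the Differentiated libraries, against 42.5 and 61.7 CPM in the Confluent libraries (log2 change -3.02, SE 0.3, adjusted p = 1.1e-07). Of 12 AP-1 genes 4 rose (1 without Confluent replicate 1, 2 without Differentiated replicate 1) and 1 fell: FOSL1, a subunit of migrating and proliferating cells, had 3.52 and 6.02 CPM in the Differentiated libraries, against 17 and 20.1 CPM in the Confluent libraries (log2 change -1.96, SE 0.27, adjusted p = 8.9e-06).

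Metabolic lists were mixed, beside the same shares of all genes. Of 33 genes of cholesterol and fatty acid synthesis 14 rose and 3 fell: the sterol reductase TM7SF2 had 278 and 283 CPM in the Differentiated libraries, against 25.1 and 24.3 CPM in the Confluent libraries (log2 change 3.5, SE 0.29, adjusted p = 1e-08). The desaturase FADS1 had 9.42 and 14.1 CPM in the Differentiated libraries, against 78.7 and 81 CPM in the Confluent libraries (log2 change -2.77, SE 0.19, adjusted p = 9.8e-10). Of 29 hypoxia and glycolysis genes 15 rose and 5 fell (3 without Confluent replicate 1 or without Differentiated replicate 2). NDRG1, a hypoxia-induced differentiation gene, had 2529 and 1666 CPM in the Differentiated libraries, against 283 and 208 CPM in the Confluent libraries (log2 change 3.1, SE 0.25, adjusted p = 7.9e-09). The oxygen sensor EGLN3 had 209 and 101 CPM in the Differentiated libraries, against 4 and 3.55 CPM in the Confluent libraries (log2 change 5.35, SE 0.5, adjusted p = 6.3e-08). The glycolytic enzyme ENO1 had 1111 and 695 CPM in the Differentiated libraries, against 2998 and 2276 CPM in the Confluent libraries (log2 change -1.55, SE 0.31, adjusted p = 0.00047). Of 35 amino acid stress genes 14 rose (9 without Differentiated replicate 2) and 6 fell (3 without Confluent replicate 1, 2 without Differentiated replicate 1), beside 25 and 4 in NT. None of the 35 differed from NT in its change past the threshold (0 by DESeq2, 13 lower at an unadjusted p under 0.05, 30 of 35 differences below 0). Of all 15757 genes, 638 were lower at that unadjusted p, and 48.4% of all differences were below 0. CHAC1, a glutathione-degrading enzyme induced by ATF4, had 14.5 and 11.8 CPM in the Differentiated libraries, against 0.881 and 0.323 CPM in the Confluent libraries (log2 change 4.36, SE 0.54, adjusted p = 2.4e-06). The leucine transporter SLC7A5 had 198 and 333 CPM in the Differentiated libraries, against 1099.8 and 1164 CPM in the Confluent libraries (log2 change -2.09, SE 0.31, adjusted p = 2.1e-05). Of 29 autophagy, lysosome and nuclear breakdown genes 17 rose and 5 fell (3 without any 1 of the 4 libraries). WIPI1, which acts in autophagosome formation, had 54.9 and 45.5 CPM in the Differentiated libraries, against 10.3 and 7.96 CPM in the Confluent libraries (log2 change 2.45, SE 0.27, adjusted p = 4.2e-07). Of 15 S100 genes 8 rose and 3 fell. Of 40 cytosolic ribosomal protein genes 3 rose (0 without Confluent replicate 2 or without Differentiated replicate 1) and 0 fell.

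Markers of other cell types were scarce. The 10 keratinocyte markers summed to 51441 to 54900 CPM in the Differentiated libraries, against 24100 to 30982 CPM in the Confluent libraries. Of them 7 rose and 1 fell, beside 21.4% and 21.7% of all genes. The 10 fibroblast markers summed to 36.5 to 38.8 CPM in the Differentiated libraries, against 4.20 to 4.40 CPM in the Confluent libraries, and nearly all of that was COL1A1, with 35.1 and 38.6 CPM in the Differentiated libraries, against 3.84 and 3.34 CPM in the Confluent libraries (log2 change 3.35, SE 0.3, adjusted p = 3.7e-08), while DCN, LUM and THY1 were at 0 in the Differentiated libraries. The 10 immune markers summed to 65.6 to 67.2 CPM in the Differentiated libraries, against 18.2 to 19.6 CPM in the Confluent libraries, most of it the lysosomal gene CD68, with 57.2 and 60.9 CPM in the Differentiated libraries, against 15.3 and 14.4 CPM in the Confluent libraries, while CD3E was at 0 in both stages. The 10 melanocyte markers summed to 7.09 to 9.17 CPM in the Differentiated libraries, against 5.53 to 10.5 CPM in the Confluent libraries, with TYR, TYRP1 and DCT at 0 in both. The 8 endothelial markers summed to 1.44 to 2.05 CPM in the Differentiated libraries, against 0 to 0.323 CPM in the Confluent libraries, with CDH5 and KDR at 0 in both. Their part in the results was not tested.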

How the data were processed

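RNA of the nTERT-1 libraries was selected for poly(A), made into libraries with a directional kit and read from a single end, per the labels' protocols. Per the submitters' processing notes, FastQC, Bowtie2, featureCounts and DESeq2 were used with hg19; versions, the annotation and the handling of strand and of reads with several matches are not given in the sources used here. The authors deposited raw read counts per gene, which were used, and a second table of signal values, the deposited counts divided by 1 size factor per library (largest relative deviation 5e-07), which was only checked. The count table holds 26364 genes, 21173 of them with a read, and library totals run from 8010178 to 16054003. Columns were matched to samples by the authors' sample table, and 1 column of no sample was not used. Spreadsheet dates in place of 28 symbols were recognised and 26 were restored.

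Counts were tested with edgeR 4.0.16 (R 4.3.3) by its quasi-likelihood test, after filtering by group and TMM scaling, in 1 model of 12 groups over all 24 libraries, which share 1 estimate of the spread (residual df 12). Changes over 2-fold were tested with glmTreat. Benjamini-Hochberg adjustment was made over 15757 genes, separately in each comparison and in the test of changes over 2-fold. Differences from NT, KAT2B_KD and KAT2AB_KD are interaction contrasts, and those contrasts share the KAT2A_KD libraries. Alternatives were DESeq2 1.42.0, RLE scaling, TMM without the 1000 highest genes, no filter, fewer libraries in the model, Subconfluent cells as the baseline, the replicate block and each library left out. Counts limit the precision of low genes, for which ratios carry 95% counting intervals or a bound of 3 counts over the group; these cover counting error only. With 2 libraries per group, no permutation test could reach the threshold for a single gene.

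The gene lists (36 lists, 915 genes) were chosen with earlier results of these data known. The text names the 8 highest and 8 lowest changes with mean log2 CPM of at least 3 and no overlap, the 8 highest and 8 lowest differences from NT with mean log2 CPM of at least 1, list members with the lowest p, the highest level or the opposite direction, and the SAGA and ATAC subunits; some of these are left out. Promoter windows came from the RefSeq table for GRCh38.p14 and were matched by symbol. Genes that share reads (230 genes, 2.6% of counts) are uncertain.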

Additional observations from a re-analysis of the deposited data

Results flagged for a closer look

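The results below were singled out because the change from Confluent to Differentiated differed between KAT2A_KD and another genotype by the test of the difference itself (edgeR interaction contrast, adjusted p under 0.05). Values are log2 differences, KAT2A_KD minus the other genotype, and both genotypes of a contrast have 2 libraries per stage.

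From NT, 27 of the 42 interferon-stimulated genes differed, all higher in KAT2A_KD. Among those named in the text, the differences were 6.62 for IFIT1, 6.41 for IFIT2 and 6.37 for IFIT3. They were 5.47 for MX1, 6.12 for MX2, 5.06 for ISG15, 4.1 for USP18 and 4.86 for OAS1. For the IFI genes they were 5.08 for IFI6, 3.98 for IFI27, 5.81 for IFI44 and 8.78 for IFI44L, whose Confluent KAT2A_KD libraries are at or near 0, so that its value depends on the fit. They were 3.8 for EPSTI1 and 2.12 for IRF9. The immunoproteasome gene PSMB9 differed by 2.31. Those of IFI6, ISG15, EPSTI1 and PSMB9 did not pass with Subconfluent cells as the baseline.

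Only some of the 77 genes higher and 20 genes lower in the difference from NT are given here. Other higher genes included VIM (2.73), MAD2L1 (2.28) and IL1B (2.05). The lower genes included SBSN (-4.7, -7.85 to -3.72 with a library left out, Confluent NT has 2 reads), LCP1 (-3.84), PGLYRP3 (-3.41), ALDH5A1 (-3.17), UNC5B (-2.52), CCDC3 (-2.48), MAF (-1.85) and HR (-1.49). From KAT2B_KD the differences were 2.71 for IFI27, 2.84 for IFIT3, -7.14 for SLC8A1 (0 reads in Differentiated KAT2A_KD, so that its value depends on the fit), -2.79 for PLA2G4F and -1.35 for IPO4. They were 2.23 for ZBED2, 1.91 for PTHLH, 1.83 for ALDH1A3, 1.785 for PORCN, 1.71 for AMIGO2 and 1.61 for SLC37A2. From KAT2AB_KD, NEFL differed by 2.69.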

How the results depend on the processing

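The KAT2A_KD change from Confluent to Differentiated numbered 6367 to 7047 genes under the other scalings, filters, models and DESeq2, against 6792, and 5092 to 5518 with 1 of its 4 libraries left out. Genes over 2-fold numbered 2543, but 1830 with DESeq2 (1053 higher, 777 lower) and 1945 to 2120 with a library left out, and interferon-stimulated genes that rose 20 to 22. Scaling moved the median change of all genes by less than 0.03 on the log2 scale.

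Genes that differed from NT numbered 97, but 60 with only the 16 Confluent and Differentiated libraries in the model, 193 with DESeq2, 272 with no filter on low counts, 73 with the Subconfluent baseline and 45 to 83 with a library left out. Interferon genes among them numbered 16 with Subconfluent cells as the baseline and 21 to 26 with a library left out. The 11 differences from KAT2B_KD became 0 in the 16-library model (898 at an unadjusted p under 0.05), 83 with DESeq2, 48 with the Subconfluent baseline, 130 with no filter and 0 to 11 with a library left out. The 1 difference from KAT2AB_KD became 0 in the 16-library model (648 unadjusted), 22 with DESeq2, 0 with the Subconfluent baseline (795 unadjusted), 91 with no filter and 0 to 15 with a library left out. The cause was not tested.

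With libraries left out, the log2 change of IFIT2 was -0.68 to 0.86, that of USP18 -0.19 to 0.015 and that of KAT2A -0.55 to 0.14; none passed the test. Of 123 genes called within KAT2A_KD in the text, 110 passed with every library left out in turn, as did 17 of the 26 called in the difference from NT and 0 of the 6 in those from KAT2B_KD and KAT2AB_KD. With Subconfluent cells as the baseline, 9 of the differences from NT given in the text did not pass, namely IFI6, ISG15, EPSTI1, PSMB9, SBSN, MAF, IL1B, ALDH5A1 and UNC5B. Not in these counts are IFITM1, IFITM2, IFITM3, IFIT1B and the genes higher than in KAT2B_KD other than IFI27 and IFIT3.

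The authors' replicate numbers are not said to mark a shared culture or day. Deviations of same-numbered libraries had a median correlation of 0.118 over 66 pairs of groups (37 over 0.1, lowest -0.256), and 0.14 between the KAT2A_KD stages. Most of these correlations were weakly positive, so they do not exclude that the numbers pair libraries. The main model leaves the numbers out because the labels state no pairing. With the replicate block, 7047 genes changed in KAT2A_KD, 121 differed from NT, 15 from KAT2B_KD and 2 from KAT2AB_KD. Without it these counts were 6792, 97, 11 and 1.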

Other observations

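The late cornified envelope genes differed in level between the genotypes. Their mean log2(CPM + 1) over the 18 genes was 3.70 and 2.79 in Differentiated KAT2A_KD, 1.04 and 0.874 in Differentiated KAT2B_KD, 4.88 and 4.95 in Differentiated KAT2AB_KD and 3.26 and 3.46 in Differentiated NT libraries. The levels of Differentiated KAT2A_KD and NT libraries overlapped, and the KAT2B_KD libraries were the lowest of the 8. In Confluent libraries the mean was 0.558 and 0.413 in KAT2A_KD, 0.12 and 0.282 in KAT2B_KD, 0.432 and 0.678 in KAT2AB_KD and 0.149 and 0.202 in NT. All 18 genes rose in KAT2A_KD and in KAT2AB_KD, and 6 in KAT2B_KD. The differences of the KAT2A_KD change from that of KAT2B_KD had a median of 1.88 and passed the threshold for 0 genes by edgeR (3 higher at an unadjusted p under 0.05, beside 589 of all 15757 genes, and 0 by DESeq2). Those from KAT2AB_KD had a median of -1.66 and passed for 0 genes (5 lower unadjusted, beside 352 of all genes, and 0 by DESeq2). Many of these genes had few reads in Confluent libraries, so their fitted changes depend on the fit.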
